A study of Mus musculus with 14 samples.

Results

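The 10 genes of interleukin-6 family and Jak-Stat3 signalling described here were followed through mouse brain tissue after a haemorrhage: the receptor chains Il6ra, Osmr, Lifr and Il6st, the kinases Jak1 and Jak2, the transcription factor Stat3, the inhibitors Socs3 and Cish, and the kinase Pim1. They were chosen by gene symbol, and all 10 of them were among the 31507 genes of the deposited expression table. The acupuncture group had received needling at GV20, a point on the top of the head, for 7 days after a haemorrhage (2 samples). The ICH group had a haemorrhage made with the animals' own blood and no acupuncture (2 samples), and the sham group had only the operation (3 samples). From each sample an immunoprecipitate (IP) of RNA carrying N6-methyladenosine (m6A) and the unselected poly(A) RNA (input) had been sequenced. Sex, age, strain, the brain region taken and the time between haemorrhage and sampling are not given in the sources used here, and nothing says that replicates were separate animals. The p-values therefore measure the spread between these samples, which may be technical.

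Cytokines of this family bind a specific receptor chain, and the shared chain gp130, encoded by Il6st, then brings Janus kinases together. The kinases phosphorylate Stat3, which moves to the nucleus and switches on genes. One of these is Socs3, whose product binds gp130 and the kinases and shuts the signal off again. In injured brain the pathway is best known from reactive astrocytes and from microglia and infiltrating leukocytes. Messenger RNA levels, measured here, do not show phosphorylation of Stat3.

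Levels are FPKM, the authors' fragment counts scaled by transcript length and by library size, so that levels may be compared between genes. Tests were made with limma on log2(FPKM + 1) over the 13666 genes that averaged 1 FPKM or more across the input libraries. A gene was called at an adjusted p under 0.05. Fold changes on this scale understate the change of genes with low levels, and the ratio of mean FPKM is given beside them. Cish lay below the filter, which left 9 of the 10 genes tested.

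In ICH tissue Socs3, Osmr, Stat3 and Il6ra rose relative to sham, while the kinases, gp130, Lifr and Pim1 did not pass the test. These 4 of 9 tested members compare with a background of 4.95% of all tested genes called higher in ICH. In acupuncture tissue the same 4 genes and Pim1 rose relative to sham, which makes 5 of 9 against a background of 8.47% called higher. No member was called lower in either comparison. Osmr, Il6ra, Socs3 and Pim1 averaged 0.268, 0.596, 0.96 and 0.991 FPKM in sham. They passed the filter only through the groups with a haemorrhage, so the counts of members called higher partly follow from the filter. In bulk tissue, more cells of a type and more RNA per cell cannot be told apart. Between acupuncture and ICH no member was called in limma, 3 of 9 had an unadjusted p under 0.05 (Stat3, Socs3 and Pim1), and the background called in either direction was 0.0366%, or 5 genes. Unadjusted p-values under 0.05 covered 20.2% of all tested genes in that comparison. The median log2 fold change of the 9 members was 0.66 for ICH against sham, beside -0.01 over all tested genes. It was 0.64 for acupuncture against sham, beside 0.04, and -0.02 for acupuncture against ICH, beside 0.05. Both comparisons with sham use the same sham libraries, and both comparisons with ICH use the same ICH libraries.

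**Figure D1:**
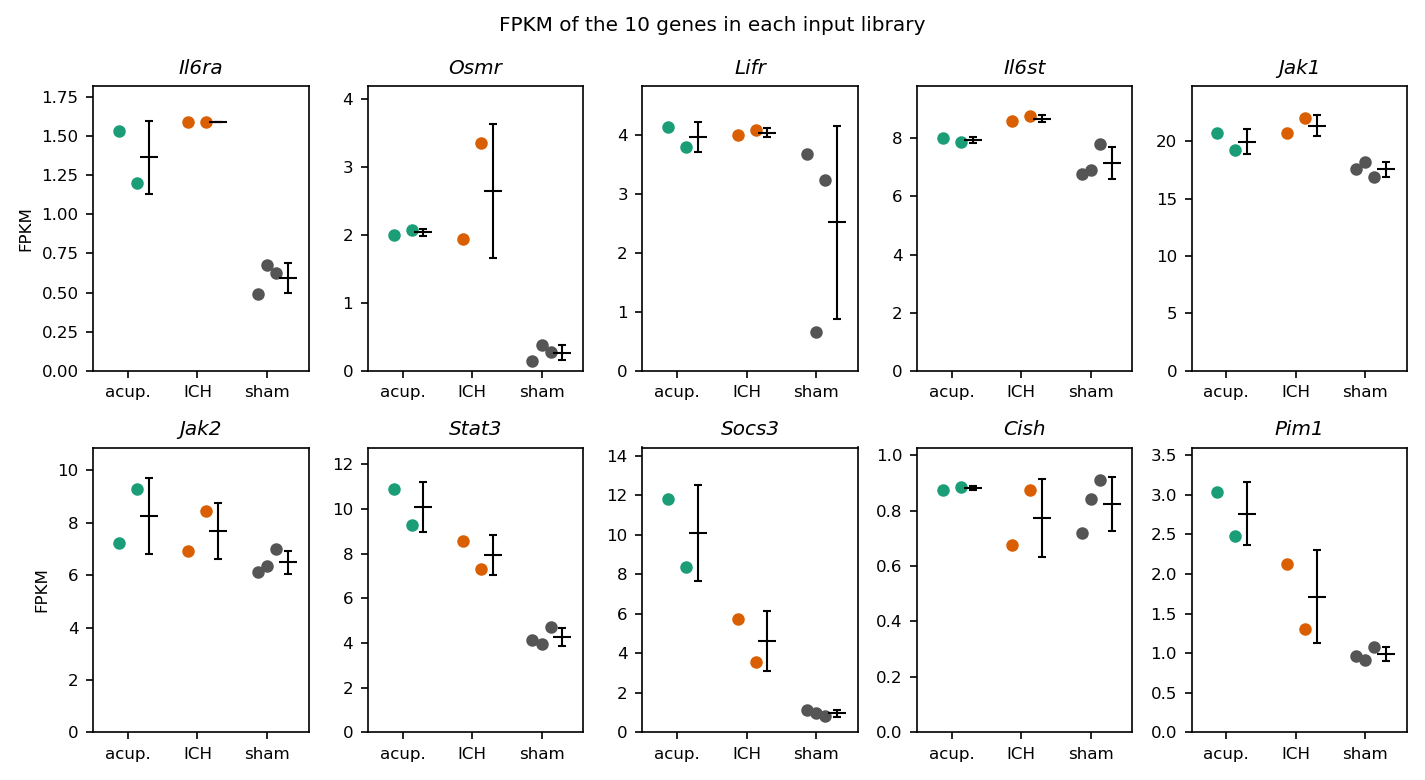
FPKM of each gene in every input library (points), with the mean and SD of each group to the right of its points (acup., acupuncture, n = 2; ICH, n = 2; sham, n = 3). All genes except Jak2 and Cish lie higher in all acupuncture and ICH libraries than in any sham library, by small steps for Il6st and Jak1. Cish does not separate the groups, and 1 sham library stands low for Lifr.

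Among the receptor chains the largest ratio was that of Osmr, the chain specific to oncostatin M (ENSMUSG00000022146, GRCm38 chr15:6813577-6874969, minus strand). Osmr stood at 2.00 and 2.08 FPKM in the acupuncture libraries, at 1.95 and 3.35 FPKM in the ICH libraries, and at 0.152, 0.379 and 0.272 FPKM in the sham libraries. All 4 libraries with a haemorrhage were above all 3 sham libraries, and the higher ICH value was replicate 2. The ratio of means was 9.88 for ICH against sham (log2 fold change 1.50, SE 0.18, limma adjusted p = 0.0043) and 7.62 for acupuncture against sham (1.27, SE 0.18, adjusted p = 0.00556). Osmr was not called between acupuncture and ICH (log2 fold change -0.23, 95% interval -0.71 to 0.24, adjusted p = 0.484). That comparison turned on the ICH libraries: the fold change was 0.05 without ICH replicate 2, and -0.52 without ICH replicate 1. In each of these fits ICH rested on the other library alone.

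Il6ra, the chain that binds interleukin-6 itself (ENSMUSG00000027947, chr3:89864059-89913196, minus strand), was the lowest of the tested members, with a mean of 1.1 FPKM over all libraries. Its values were 1.53 and 1.20 FPKM in acupuncture, 1.59 and 1.59 FPKM in ICH, and 0.489, 0.674 and 0.625 FPKM in sham. No library with a haemorrhage overlapped with sham. ICH exceeded sham by a ratio of 2.66 (log2 fold change 0.70, SE 0.12, adjusted p = 0.0202), and acupuncture exceeded sham by a ratio of 2.29 (0.57, SE 0.12, adjusted p = 0.0276). These calls were close to the threshold. The call against sham was lost in ICH without any 1 of the sham libraries or ICH replicate 2 (adjusted p up to 0.0928), and in acupuncture without any 1 of the sham or acupuncture libraries (adjusted p up to 0.158). The log2 fold change stayed between 0.65 and 0.73 for ICH and between 0.46 and 0.67 for acupuncture.

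Lifr, the chain for leukaemia inhibitory factor (ENSMUSG00000054263, chr15:7090614-7197489, plus strand), had 4.15 and 3.80 FPKM in acupuncture, 4.00 and 4.10 FPKM in ICH, and 3.69, 0.653 and 3.24 FPKM in sham. Sham replicate 2 stood far below the other 6 libraries, which lay between 3.24 and 4.15 FPKM. Lifr was not called for ICH (log2 fold change 0.66, SE 0.42, adjusted p = 0.378) or for acupuncture against sham (0.64, SE 0.42, adjusted p = 0.405), and without sham replicate 2 the fold changes were at their lowest, 0.18 and 0.16. Il6st, which encodes gp130 (ENSMUSG00000021756, chr13:112464070-112510086, plus strand), had 8.02 and 7.86 FPKM in acupuncture, 8.58 and 8.76 FPKM in ICH, and 6.78, 6.92 and 7.79 FPKM in sham. The groups did not overlap, but the steps were small: 0.25 on the log2 scale for ICH against sham (95% interval 0.03 to 0.46, adjusted p = 0.192) and 0.13 for acupuncture against sham (-0.08 to 0.35, adjusted p = 0.427). The shared chain stood above Osmr, Il6ra and Lifr in every library.

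Neither kinase was called in any comparison. Jak1, which pairs with gp130 (ENSMUSG00000028530, chr4:101152367-101265282, minus strand), was the most abundant member, with 20.7 and 19.2 FPKM in acupuncture, 20.7 and 22.0 FPKM in ICH, and 17.6, 18.2 and 16.9 FPKM in sham. ICH and acupuncture libraries all lay above sham, by 0.27 in ICH (SE 0.09, 95% interval 0.05 to 0.48, adjusted p = 0.163) and 0.17 in acupuncture (SE 0.09, -0.04 to 0.39, adjusted p = 0.3) on the log2 scale. When ICH replicate 1 was left out the step in ICH was 0.31, in a fit where ICH rests on 1 library assumed to vary like the other groups. Jak2, used by receptors for growth hormone, interferon gamma and several other cytokines (ENSMUSG00000024789, chr19:29251828-29313080, plus strand), had 7.24 and 9.28 FPKM in acupuncture, 6.94 and 8.44 FPKM in ICH, and 6.12, 6.37 and 6.99 FPKM in sham. The lower ICH library fell within the sham range, and the fold changes were 0.21 for ICH (adjusted p = 0.378) and 0.30 for acupuncture (adjusted p = 0.221) against sham.

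Stat3, the transcription factor of the pathway (ENSMUSG00000004040, chr11:100885098-100939540, minus strand), had 10.9 and 9.30 FPKM in acupuncture, 8.58 and 7.32 FPKM in ICH, and 4.15, 3.94 and 4.71 FPKM in sham. The 3 groups did not overlap, and acupuncture was the highest. Stat3 rose 1.86-fold in ICH against sham by the ratio of means (log2 fold change 0.76, SE 0.12, adjusted p = 0.0127) and 2.37-fold in acupuncture against sham (1.07, SE 0.12, adjusted p = 0.00176). The call for ICH was lost without sham replicate 1 (log2 fold change 0.75, adjusted p = 0.0661) and without sham replicate 2 (0.72, adjusted p = 0.0583). The call for acupuncture held in all 7 fits that left out a library (adjusted p 0.00128 to 0.02). The step between acupuncture and ICH was 0.31 on the log2 scale, with a 95% interval of 0.00 to 0.62, and was not called (adjusted p = 0.246).

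Socs3, the feedback inhibitor (ENSMUSG00000053113, chr11:117966079-117970047, minus strand), showed the largest log2 fold change of the members against sham in acupuncture. Its values were 11.8 and 8.36 FPKM in acupuncture, 5.71 and 3.55 FPKM in ICH, and 1.12, 0.957 and 0.807 FPKM in sham. The groups did not overlap, and replicate 1 was the higher library in both acupuncture and ICH. The means were 10.1 ± 2.4 FPKM in acupuncture (SD, n = 2), 4.63 ± 1.53 FPKM in ICH (SD, n = 2) and 0.96 ± 0.155 FPKM in sham (SD, n = 3). Socs3 rose 10.5-fold in acupuncture against sham (log2 fold change 2.48, SE 0.20, adjusted p = 0.000541) and 4.82-fold in ICH against sham (1.50, SE 0.20, adjusted p = 0.00719), and both calls held without any 1 library. Acupuncture exceeded ICH by a ratio of 2.17 in the means. This step of 0.98 on the log2 scale (SE 0.22, 95% interval 0.46 to 1.51) had an unadjusted p of 0.00314 and an adjusted p of 0.182 in limma, so it was not called. Without ICH replicate 1 it was 1.27, with ICH then resting on replicate 2 alone. Without ICH replicate 2 it was 0.70, with ICH then resting on replicate 1 alone.

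Cish, an inhibitor induced mainly through Stat5 (ENSMUSG00000032578, chr9:107296026-107302784, plus strand), did not separate the groups. It had 0.875 and 0.885 FPKM in acupuncture, 0.675 and 0.873 FPKM in ICH, and 0.718, 0.841 and 0.909 FPKM in sham. Both acupuncture values lay inside the sham range. In the fit without a filter its log2 fold changes were -0.04 for ICH against sham, 0.09 for acupuncture against ICH and 0.05 for acupuncture against sham (adjusted p = 0.895, 0.765 and 0.888).

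The promoters of these inhibitors are shown because they were the only member promoters that held the palindromic Stat motif TTCNNNGAA in the searched window, while their transcripts behaved differently in these libraries. RefSeq promoters (GRCm38.p6, 250 bases before to 50 after the start site, 300 bases) were available for all 10 members, 12 promoters in all. The motif reads the same on both strands, and it occurs in 2 of these 12 and in 2726 of all 32851 promoters (8.3%). Capitals mark the motif in the 30 bases around it, 5′ to 3′ on the gene's strand.
Socs3 (chr11:117969501-117969530, minus strand): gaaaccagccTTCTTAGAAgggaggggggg
Cish (chr9:107296654-107296683, plus strand): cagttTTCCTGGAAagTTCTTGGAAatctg
The match in Socs3 begins 154 bases before the RefSeq start site. The matches in Cish begin at base 1 and at base 12, counted from 1 at the start site, and do not overlap each other. The expression table gives both genes an earlier start than RefSeq does, at 117970047 for Socs3 and at 107296026 for Cish. Counted from those starts, both windows shown lie inside the genes and not before them. A match describes letters in this window and not a bound site, and the windows of the other members, Stat3 included, held no match.

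Pim1, a survival kinase known as a Stat target (ENSMUSG00000024014, chr17:29490753-29496112, plus strand), had 3.04 and 2.48 FPKM in acupuncture, 2.13 and 1.30 FPKM in ICH, and 0.969, 0.918 and 1.08 FPKM in sham. The groups did not overlap, with acupuncture the highest and ICH replicate 2 close to sham. Pim1 rose 2.79-fold in acupuncture against sham (log2 fold change 0.92, SE 0.16, adjusted p = 0.0113). This call was lost without acupuncture replicate 1 (adjusted p = 0.0893). In ICH against sham the ratio of means was 1.73 (0.43, SE 0.16, adjusted p = 0.185), which was not called. Acupuncture against ICH gave 0.49 (SE 0.17, 95% interval 0.08 to 0.89, adjusted p = 0.218), which was not called. Without ICH replicate 1 this step was 0.71, with ICH then resting on replicate 2 alone.

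Jak1 had the highest FPKM of the members in every group, while the place of Socs3 differed. In acupuncture Socs3 and Stat3 averaged 10.1 FPKM each and stood next after Jak1. The acupuncture libraries of Socs3 overlapped those of Stat3 and Jak2 (8.26 ± 1.44 FPKM, SD, n = 2), and those of Jak2 overlapped Il6st (7.94 ± 0.114 FPKM, SD, n = 2). In ICH the libraries of Stat3 (7.95 ± 0.889 FPKM, SD, n = 2) and Jak2 (7.69 ± 1.06 FPKM, SD, n = 2) overlapped, and those of Socs3 overlapped Lifr (4.05 ± 0.071 FPKM, SD, n = 2). In sham Socs3 overlapped Pim1 (0.991 ± 0.0854 FPKM, SD, n = 3) and Cish (0.823 ± 0.0968 FPKM, SD, n = 3), and Osmr (0.268 ± 0.114 FPKM, SD, n = 3) was the lowest.

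Libraries that do not overlap between groups were common in the whole table, so the counts of members are read against it. In ICH against sham 8 of 9 tested members were higher without overlap (Jak2 overlapped), beside 21.5% of all tested genes. In acupuncture against ICH 3 of 9 were (Stat3, Socs3 and Pim1), beside 28.8%. In acupuncture against sham all 9 were, beside 31.8%. The count for acupuncture against ICH is close to the background. The counts against sham include Osmr, Il6ra, Socs3 and Pim1, which passed the filter only through the groups with a haemorrhage.

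**Figure D2:**
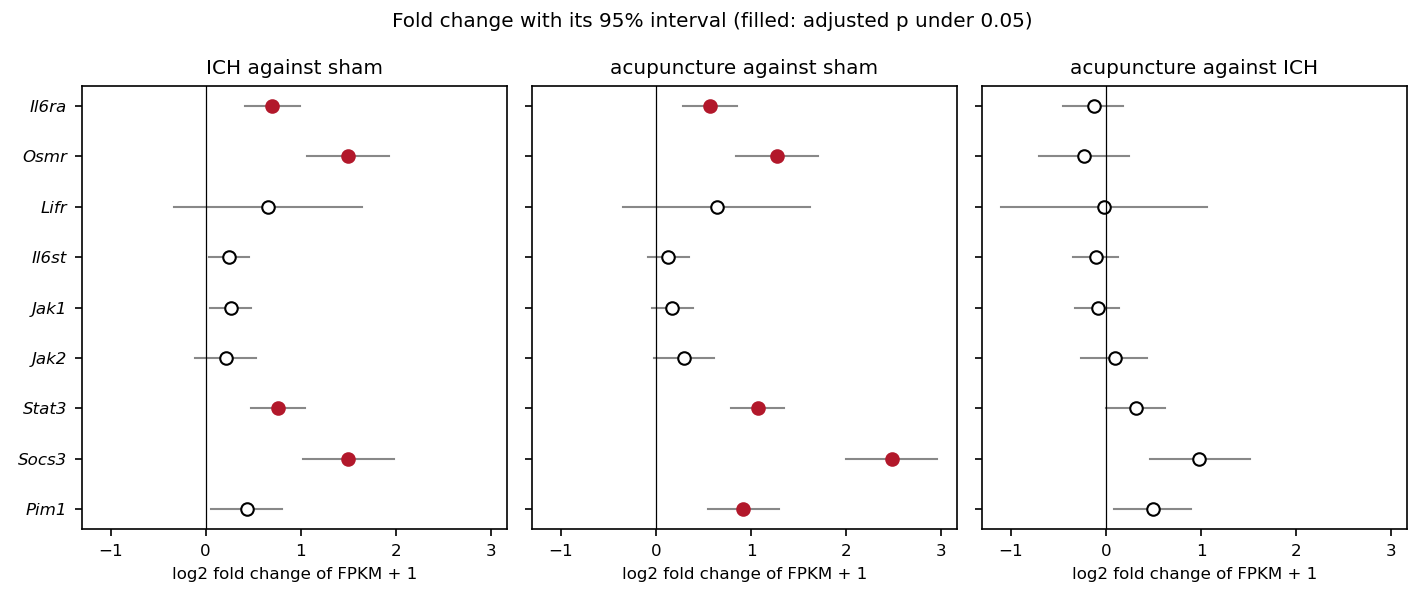
Log2 fold change of FPKM + 1 (points) with its 95% interval (lines) for the 9 tested members in the 3 comparisons, each named as first group over second. Filled points had a limma adjusted p under 0.05: 4 for ICH against sham, 5 for acupuncture against sham and none for acupuncture against ICH, where Socs3 lies highest at 0.98.

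The pathway lists that follow were chosen with earlier results of these data known, so their counts are descriptions and not tests. Around the members, the ligands were sparse. Of 10 ligand and ligand-subunit genes of the family, 2 passed the filter. Both averaged under 1 FPKM in sham and passed only through the groups with a haemorrhage, so their rise against sham partly follows from the filter. Ebi3, a subunit of interleukin-27, averaged 2.97 ± 0.477 FPKM in acupuncture, 1.62 ± 0.399 FPKM in ICH and 0.477 ± 0.112 FPKM in sham, and rose in both against sham (log2 fold change 1.43, adjusted p = 0.00143, in acupuncture; 0.82, adjusted p = 0.0231, in ICH). Its call in ICH was lost without any 1 of the sham libraries and without ICH replicate 2. Cntf, ciliary neurotrophic factor, averaged 3.10 ± 0.43 FPKM in acupuncture, 1.93 ± 0.344 FPKM in ICH and 0.833 ± 0.358 FPKM in sham, and rose in acupuncture against sham (1.18, adjusted p = 0.00829) but was not called in ICH (0.69, adjusted p = 0.0927). The Cntf call was lost without acupuncture replicate 1 (adjusted p = 0.0712).

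The ligands named for the measured receptors were too low to test. Osm, the ligand of Osmr, had 0.459 and 0.453 FPKM in acupuncture, 0.414 and 0.224 FPKM in ICH, and 0.0398, 0.0436 and 0.0795 FPKM in sham. Lif had 0.435 and 0.397 FPKM in acupuncture, 0.328 and 0.324 FPKM in ICH, and 0.0306, 0.0515 and 0.103 FPKM in sham. For both, every library with a haemorrhage lay above every sham library. Il6 had 0.0569 and 0.0394 FPKM in acupuncture and 0.204 and 0.19 FPKM in ICH, and was listed at 0, 0 and 0.0335 FPKM in sham, so both ICH values were above both acupuncture values. Clcf1, a partner cytokine for the Cntf receptor, had 1.17 and 1.81 FPKM in acupuncture, 1.27 and 1.30 FPKM in ICH, and 0.115, 0.376 and 0.385 FPKM in sham. The other receptors of the family that were tested, Cntfr and Il11ra1, were not called in any comparison.

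Of the other Jak and Stat genes, 6 of 8 were tested. The background called higher was 8.47% in acupuncture and 4.95% in ICH against sham. In acupuncture against sham 5 of 6 rose, among them Jak3, a kinase of leukocytes (log2 fold change 1.03, adjusted p = 0.00275), Stat2, a factor of the interferon response (0.94, adjusted p = 0.00873), and Stat6, the factor of interleukin-4 signalling (0.91, adjusted p = 0.00567). In ICH against sham 2 of 6 rose, among them Jak3 (0.59, adjusted p = 0.0435). The medians of the list were 0.93 and 0.53, and 0.31 for acupuncture against ICH, where none was called. Jak3 averaged 3.38 ± 0.646 FPKM in acupuncture (SD, n = 2), 2.21 ± 0.275 FPKM in ICH (SD, n = 2) and 1.14 ± 0.0309 FPKM in sham (SD, n = 3). Both calls in ICH were lost without any 1 of the sham libraries and without ICH replicate 2.

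Of the other inhibitors, 13 of 14 were tested, of which 2 rose and 1 fell in acupuncture and 1 rose in ICH against sham. The background called higher was 8.47% in acupuncture and 4.95% in ICH, and 440 of 13666 tested genes were called lower in acupuncture. Ptpn6, the phosphatase SHP-1 of blood cells and microglia, averaged 10.2 ± 0.877 FPKM in acupuncture, 7.28 ± 0.189 FPKM in ICH and 1.45 ± 0.0669 FPKM in sham, and rose in both (log2 fold change 2.19, adjusted p = 4.45e-05, in acupuncture; 1.76, adjusted p = 0.000208, in ICH). In acupuncture against sham Ptpn1 also rose (0.64, adjusted p = 0.0127) and Socs5 fell (-0.38, adjusted p = 0.0375). The Ptpn1 call was lost without either acupuncture library and without sham replicate 1 or 3 (adjusted p up to 0.0963), and the Socs5 call without any 1 of the acupuncture or sham libraries (adjusted p up to 0.214), while both Ptpn6 calls held in all 7 such fits. The list's median was 0.00 in acupuncture and 0.10 in ICH against sham, and the fold changes of Socs2, Socs4, Socs5, Socs6 and Socs7 ran from -0.41 to 0.11, beside 2.48 and 1.50 for Socs3. The difference between Socs3 and these genes was not tested. The other Pim kinases, Pim2 and Pim3, were not called in any comparison. Pim3 averaged 9.14 ± 0.68 FPKM in acupuncture, 6.46 ± 2.41 FPKM in ICH and 11.2 ± 0.501 FPKM in sham.

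Of 16 other receptors that signal through Janus kinases, 14 were tested. In each comparison with sham 9 rose: Csf3r, Il2rg, Il4ra, Csf2rb, Il10ra, Il10rb, Ifnar2, Ifngr1 and Il13ra1. The background called higher was 8.47% in acupuncture and 4.95% in ICH against sham. Il2rg, Csf2rb and Il4ra averaged 0.391, 0.141 and 0.766 FPKM in sham and passed the filter only through the groups with a haemorrhage. The Il13ra1 call was lost in acupuncture without acupuncture replicate 1 (adjusted p = 0.0858), and in ICH without ICH replicate 2 or any 1 of the sham libraries (adjusted p up to 0.0792). The list's median was 0.88 for acupuncture and 0.84 for ICH against sham. Il2rg, the common gamma chain of lymphoid and myeloid cells, averaged 5.09 ± 0.595 FPKM in acupuncture, 3.74 ± 1.34 FPKM in ICH and 0.391 ± 0.0416 FPKM in sham. Csf3r, the receptor for granulocyte colony-stimulating factor, averaged 7.70 ± 0.358 FPKM in acupuncture, 6.60 ± 1.36 FPKM in ICH and 1.28 ± 0.108 FPKM in sham. Receptors that did not pass included Ghr (log2 fold change -0.07 in acupuncture and 0.17 in ICH) and Epor (-0.05 and -0.08).

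Of 18 genes known as Stat3 targets, all were tested. The list was chosen with earlier results of these data known, so its counts describe these genes and do not test Stat3 activity. The background called higher was 8.47% in acupuncture and 4.95% in ICH against sham. Timp1, Icam1 and Cebpd averaged 0.381, 0.499 and 0.879 FPKM in sham and passed the filter only through the groups with a haemorrhage. In acupuncture against sham 12 rose and 1 fell, with a median of 1.35, and in ICH against sham 13 rose and 1 fell, with a median of 1.10. Serpina3n, a secreted protease inhibitor of reactive astrocytes, averaged 224 ± 7.17 FPKM in acupuncture, 131 ± 4.22 FPKM in ICH and 4.38 ± 0.605 FPKM in sham (log2 fold change 5.39, adjusted p = 5.71e-06, in acupuncture; 4.63, adjusted p = 1.64e-05, in ICH). Timp1, an inhibitor of matrix proteases, averaged 60.9 ± 21.1 FPKM in acupuncture, 29.9 ± 3.47 FPKM in ICH and 0.381 ± 0.234 FPKM in sham. Lcn2, Bcl3, Icam1 and Cebpd also rose in both. The gene that fell in both was Vegfa (log2 fold change -0.85, adjusted p = 0.00949, in acupuncture; -0.82, adjusted p = 0.0192, in ICH), and Junb, Hif1a, Lbp and Bcl2l1 did not pass. The Vegfa call was lost in acupuncture without acupuncture replicate 1 (adjusted p = 0.0702), and in ICH without ICH replicate 2, sham replicate 2 or sham replicate 3 (adjusted p up to 0.0842). None of the 18 was called between acupuncture and ICH, where the median was 0.32, 9 had an unadjusted p under 0.05, and the smallest adjusted p was that of Serpina3n (0.77, adjusted p = 0.132). Many of these genes answer to other factors as well.

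**Figure D3:**
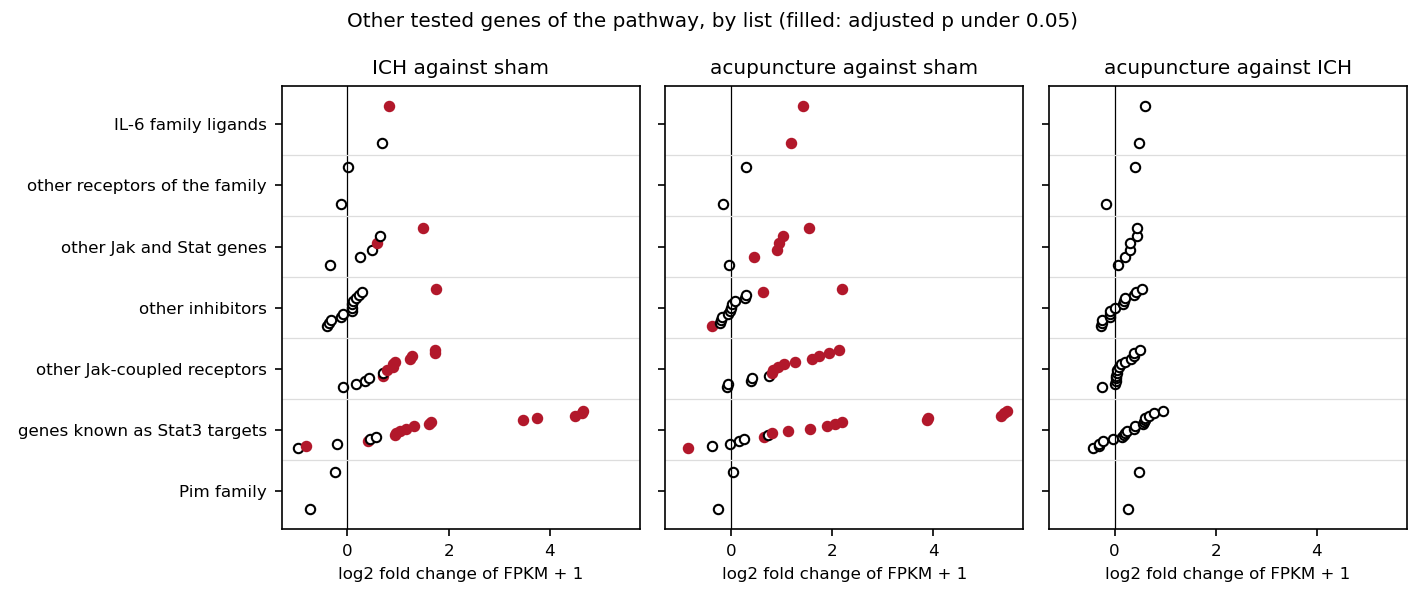
Log2 fold change of FPKM + 1 of each tested gene of the 7 other pathway lists (rows) in the 3 comparisons, each named as first group over second. Filled points had a limma adjusted p under 0.05. Against sham the Stat3 targets reach above 5 in acupuncture and above 4 in ICH, Ptpn6 lies farthest from 0 among the other inhibitors, and no listed gene is called for acupuncture against ICH.

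Summed markers of several cell types differed between the groups. The calls of single markers stand beside a background called higher of 8.47% in acupuncture and 4.95% in ICH against sham. The 9 markers of microglia and macrophages summed to 509 and 502 FPKM in acupuncture, 445 and 392 FPKM in ICH, and 88.9 to 110 FPKM in sham, with 8 of 9 called higher in each group against sham and P2ry12 called lower in acupuncture. In ICH the calls of C1qa and Tmem119 were lost without any 1 of the sham libraries, and that of C1qa also without either acupuncture library. The P2ry12 call was lost without any 1 of the sham or acupuncture libraries (adjusted p up to 0.244). The 8 astrocyte markers, of which Gfap is also on the list of Stat3 targets, summed to 977 and 789 FPKM in acupuncture, 891 and 837 FPKM in ICH, and 449 to 489 FPKM in sham, and 3 in acupuncture and 2 in ICH were called higher. Most of the step in these sums was Gfap, which averaged 407 FPKM in acupuncture, 366 FPKM in ICH and 26.2 FPKM in sham. The median log2 fold change of the 8 astrocyte markers was 0.41 in acupuncture and 0.23 in ICH against sham. Without any 1 of the sham or acupuncture libraries 1 astrocyte marker was called in acupuncture, and without sham replicate 1 or 2, 1 was called in ICH. The 6 neutrophil markers, of which Csf3r is also on the receptor list, summed to 83.4 and 56.0 FPKM in acupuncture, 20.9 and 21.9 FPKM in ICH, and 8.97 to 11.6 FPKM in sham. Of these, Ly6g, Retnlg and Camp were listed at 0 in at least 1 library, and the 3 tested markers were called higher in acupuncture and 1 of them in ICH against sham. Endothelial markers summed to 75.2 and 72.4 FPKM in acupuncture, 53.1 and 44.3 FPKM in ICH, and 33.4 to 40.5 FPKM in sham, and fibroblast markers to 12.6 and 15.2, 12.8 and 16.9, and 3.97 to 5.88 FPKM in the same groups. The part of these shifts in the results for the members was not tested.

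Markers of brain cells were present in all libraries, at 537 to 907 FPKM summed over 6 neuronal markers and 473 to 1220 FPKM over 6 oligodendrocyte markers. Markers of regions differed between libraries. Over all 13666 tested genes, 440 were called lower in acupuncture and 99 in ICH against sham. Those of striatal neurons summed to 167 and 134 FPKM in acupuncture, 209 and 169 FPKM in ICH, and 381 to 414 FPKM in sham, with 7 of 7 called lower in acupuncture (5 to 7 when a library was left out) and 5 in ICH (1 without any 1 of the sham libraries, 3 without ICH replicate 2, and up to 6), and those of the choroid plexus to 341 and 1.64 FPKM in acupuncture, 335 and 348 FPKM in ICH, and 451 to 486 FPKM in sham. The part of these differences in the results for the members was not tested. Read depth is unknown, because FPKM gives no read counts. Totals ranged from 179810 to 198472 FPKM.

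Genes whose pattern over the 7 input libraries was most like that of a member were found by the root mean square difference of log2 values, each centred on its own mean. For Stat3 they included Cmtm7 (0.0703), Cnn3 (0.0747), S100a16 (0.0749) and Cyb5r3 (0.079), beside a median of 0.508 over 13665 genes. For Socs3 they included Hcls1 (0.152), Clic1 (0.156), Ctla2b (0.173) and Plin2 (0.176), beside a median of 1.08. Hcls1, a protein of blood cells, averaged 16.8 FPKM in acupuncture, 8.6 FPKM in ICH and 1.87 FPKM in sham. For Osmr they were Tlr7 (0.0711), Sting1 (0.0808), Gbp7 (0.118), Casp8 (0.124) and Ube2l6 (0.127), beside a median of 0.732. Tlr7, a receptor for RNA inside cells, averaged 2.55 FPKM in acupuncture, 3.41 FPKM in ICH and 0.446 FPKM in sham. A shared order of group means follows from how these genes were picked. The libraries behind these patterns are the same ones that the tests used.

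All 10 members carried at least 1 m6A peak in each group, also Cish, whose level was below the filter. Peaks were common: 94.0% of the 13666 tested genes had one in acupuncture, 94.3% in ICH and 93.6% in sham. The members held 28 of 50105 peaks in acupuncture, 33 of 54754 in ICH and 34 of 48251 in sham. The annotation placed 75.0% of them in acupuncture, 72.7% in ICH and 67.6% in sham in 3′ untranslated regions (UTRs), beside 54.7%, 52.3% and 54.5% of all peaks. Peak heights are the authors' log2 of IP over input for a whole group, so no replicate spread is known, and the lists hold only peaks with a p of at most 0.05. Member peaks had a median height of 1.48 in acupuncture (range 0.49 to 2.62), 1.29 in ICH (0.61 to 3.04) and 1.13 in sham (0.58 to 2.90), beside 1.12, 1.24 and 1.07 over all peaks.

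The highest member peak in acupuncture and in ICH lay in the 3′ UTR of Il6st, with a log2 of IP over input of 2.62 in acupuncture, 3.04 in ICH and 2.87 in sham. In ICH it spanned chr13:112502856-112506337. The strongest peaks of Il6ra (2.60, 2.93 and 2.70 in the same order), Lifr (2.56, 2.61 and 2.57) and Cish (2.38, 2.20 and 2.47) were also high. For Il6ra the strongest peak in ICH lay at another site than in the other groups. It spanned 575 bp, and at that site acupuncture had 2.55 and sham 2.60. Over the longer Il6ra peak the heights were 2.60 in acupuncture, 2.13 in ICH and 2.70 in sham, over 17521, 2325 and 16648 bp. Jak1 had its strongest peak at the 3′ end of the gene, at 2.14 in acupuncture, 2.25 in ICH and 2.11 in sham. Jak2 had 1.98, 2.05 and 1.85 in its 3′ UTR. Pim1 alone had its strongest peak in the 5′ UTR, in acupuncture (2.01) and in sham (2.90), while in ICH it lay in the 3′ UTR (1.98). The strongest peak of Stat3 was the lowest of these in acupuncture and in sham, at 1.42 in acupuncture, 1.84 in ICH and 1.03 in sham. Several peaks are listed over long spans, with 17521 bp for the strongest Il6ra peak in acupuncture and 67305 bp for the 5′ UTR peak of Jak1 in sham, so that heights over different spans are set side by side.

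**Figure D4:**
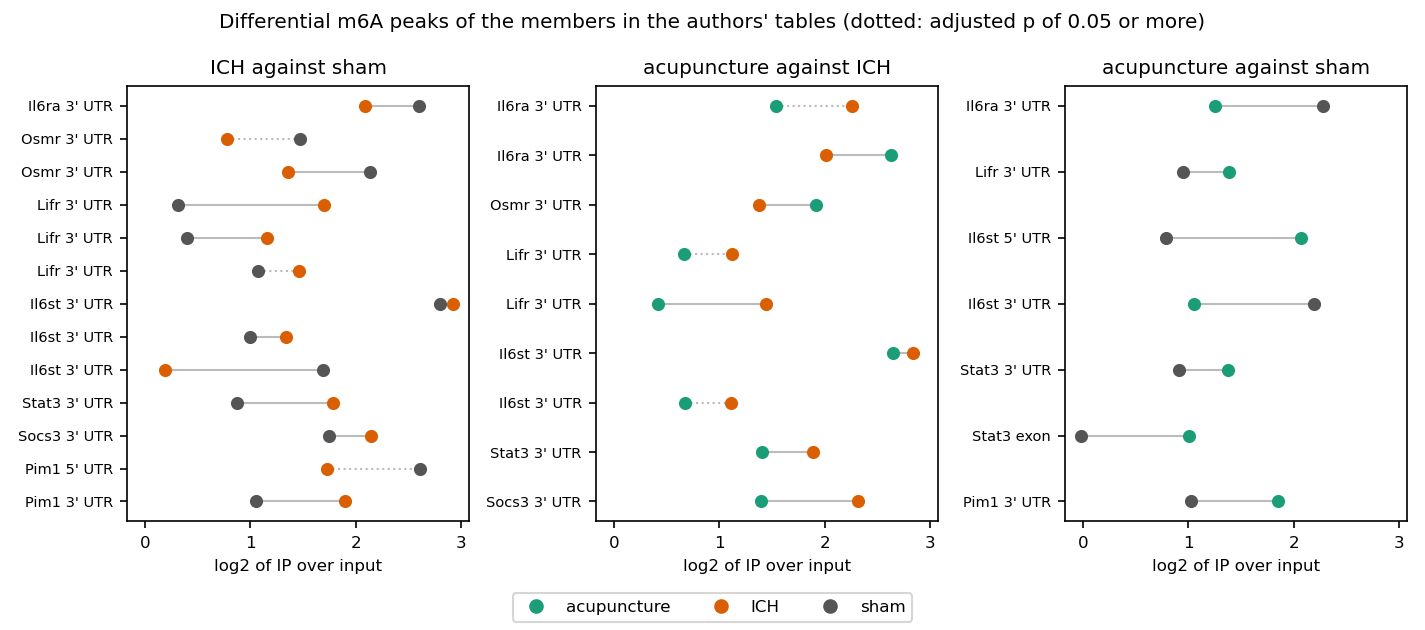
Log2 of IP over input in both groups of each comparison for every member peak in the authors' deposited tables of differential peaks (acupuncture green, ICH orange, sham grey; dotted lines, adjusted p of 0.05 or more). The 3′ UTR peak of Stat3 appears in all 3 panels, at 1.79 in ICH against 0.87 in sham, at 1.41 in acupuncture against 1.89 in ICH, and at 1.38 in acupuncture against 0.91 in sham.

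A single Stat3 peak was listed in all 3 of the authors' deposited tables of differential peaks. It lies in the 3′ UTR, 1525 bases from the 3′ end of the gene (chr11:100886623-100887097). In the authors' deposited table of ICH and sham its log2 of IP over input was 1.79 in ICH and 0.87 in sham (difference 0.93, the authors' adjusted p = 1.57e-10). In the authors' deposited table of acupuncture and ICH it was 1.41 in acupuncture and 1.89 in ICH (difference -0.48, adjusted p = 0.000125), over a peak that ended at 100887072. In the authors' deposited table of acupuncture and sham it was 1.38 in acupuncture and 0.91 in sham (difference 0.47, adjusted p = 0.00372). In these tables the enrichment on the Stat3 3′ UTR was highest in ICH, while the Stat3 input level was highest in acupuncture. This direction of enrichment was common. Over all listed peaks, 78.7% were higher in ICH than in sham, and 18.7% were higher in acupuncture than in ICH. A link between enrichment and input level was not tested. The authors' deposited table of acupuncture and sham also held an exonic Stat3 peak, at 1.01 in acupuncture and -0.02 in sham (difference 1.03, adjusted p = 0.0277).

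Socs3 was listed in 2 of the authors' deposited tables, over spans that differ. Its 3′ UTR peak stood at 2.15 in ICH and 1.75 in sham over 1850 bp (difference 0.40, adjusted p = 0.0264). Over the last 375 bp of the gene, the authors' deposited table gave 1.40 in acupuncture and 2.32 in ICH (difference -0.92, adjusted p = 2.02e-08). Thus the listed m6A enrichment over these last 375 bp of Socs3 was lower in acupuncture than in ICH. Most listed peaks had this direction, with 18.7% of all listed peaks higher in acupuncture than in ICH. Both input values of Socs3 were higher in acupuncture. No other Socs3 peak was listed for acupuncture against ICH. For Osmr the authors' deposited tables gave the opposite order of signs: 1.36 in ICH and 2.14 in sham (difference -0.79, adjusted p = 6.45e-05), and 1.92 in acupuncture and 1.38 in ICH (difference 0.53, adjusted p = 1.44e-07). The sham input level of Osmr was low, at 0.152, 0.379 and 0.272 FPKM.

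Pim1 had a 3′ UTR peak that was higher against sham in both authors' deposited tables, at 1.90 in ICH and 1.05 in sham (difference 0.85, adjusted p = 0.0203), and at 1.85 in acupuncture and 1.03 in sham (difference 0.82, adjusted p = 0.0296). In the authors' deposited tables the Il6st transcript held several peaks. Near its 3′ end 1 differential peak stood at 0.19 in ICH and 1.69 in sham (difference -1.50, adjusted p = 7.21e-05) and at 1.05 in acupuncture and 2.19 in sham (difference -1.15, adjusted p = 0.0362). The authors' peak lists give another order there, with 1.08 in acupuncture and 1.20 in ICH over 175 bp, and 0.95 in sham over an overlapping peak of 800 bp, so no direction is read from it. Its main 3′ UTR peak stood at 2.93 in ICH and 2.80 in sham (difference 0.13, adjusted p = 0.00648), and at 2.65 in acupuncture and 2.84 in ICH (difference -0.20, adjusted p = 7.3e-06). Beside it, another 3′ UTR peak stood at 1.34 in ICH and 1.0 in sham (difference 0.34, adjusted p = 0.00356). A 5′ UTR peak of Il6st stood at 2.07 in acupuncture and 0.79 in sham (difference 1.28, adjusted p = 0.0188) in the authors' deposited table. Lifr had a narrow 3′ UTR peak of 125 bp at 1.70 in ICH and 0.31 in sham (difference 1.39, adjusted p = 1.5e-05) in the authors' deposited table, and in sham replicate 2 its input level was low. A further Lifr peak in the authors' deposited tables, also in the 3′ UTR, stood at 1.16 in ICH and 0.40 in sham (difference 0.77, adjusted p = 0.00522), and at 0.42 in acupuncture and 1.44 in ICH (difference -1.02, adjusted p = 0.00179). The last one, at the 3′ end, stood at 1.39 in acupuncture and 0.95 in sham (difference 0.44, adjusted p = 0.0351).

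Il6ra had a 3′ UTR peak at 1.25 in acupuncture and 2.28 in sham (difference -1.04, adjusted p = 0.013) in the authors' deposited table. In the authors' deposited table of acupuncture and ICH, an overlapping peak stood at 1.54 in acupuncture and 2.26 in ICH (difference -0.72, adjusted p = 0.0541). Over another, longer peak, of 7722 bp and 16873 bp, the authors' deposited tables gave 2.09 in ICH and 2.60 in sham (difference -0.52, adjusted p = 0.000948), and 2.63 in acupuncture and 2.01 in ICH (difference 0.63, adjusted p = 1.49e-06). The 2 Il6ra peaks thus had differences of opposite sign between acupuncture and ICH. Together with the first Il6ra peak, 6 member peaks of the authors' deposited tables, in Osmr, Lifr, Pim1, Il6ra and Il6st, had an adjusted p between 0.0529 and 0.111.

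In the authors' deposited tables, members with a differential peak at an adjusted p under 0.05 numbered 7 of 10 for ICH against sham, beside 62.9% of all genes with a peak. They numbered 6 of 10 for acupuncture against ICH, beside 53.9%, and 5 of 10 for acupuncture against sham, beside 41.7%. These shares are near the background. Of the listed member peaks, 8 of 13 were higher in ICH than in sham, 2 of 9 higher in acupuncture than in ICH, and 5 of 7 higher in acupuncture than in sham. Over all listed peaks of the authors' deposited tables the shares that were higher were 78.7%, 18.7% and 58.2%. Jak1, Jak2 and Cish had no listed differential peak.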

How the data were processed

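Gene levels were deposited as FPKM by the authors, named so per the file headers. Peak lists hold the authors' log2 of IP over input per group, and the differential tables their log2 difference, each with the authors' own p-value and adjusted p-value. Per the submitters' processing notes, edgeR, StringTie, HOMER, HISAT2 and fastp were used, with roles and versions not given in the sources used here, and the notes give a human genome build, although the gene identifiers are mouse. Of 25299 genes matched by symbol, 96.27% lay within 1000 bp of their place in GRCm38.p6, so coordinates are given on that build, counted from 1 (the peak files count starts from 0). The columns headed control and EA were matched to sham and acupuncture by elimination, and 2 columns that match no sample were not used. The sources do not say whether their samples entered the peak tables.

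One model over the 7 input libraries was fitted in limma 3.58.1 (R 4.3.3) on log2(FPKM + 1), with a mean per group, a mean-variance trend, two-sided p-values and Benjamini-Hochberg adjustment over genes that averaged 1 FPKM or more. It was tested on simulated data. Tables and figures used Python 3.11.15, pandas 2.3.3 and matplotlib 3.10.9. Per list, up to 4 genes with the smallest p were to be named, besides all members; other listed genes are named as called or uncalled. Some genes that this rule names are not reported here. The members and lists were chosen with earlier results of these data known. Alternatives changed the pseudocount, filter, scaling, trend, weights, block, groups fitted and peak thresholds, and left out each library.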

Additional observations from a re-analysis of the deposited data

How the results depend on the processing

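With 2 or 3 libraries per group and no read counts, single libraries decide several calls. Counts of members called for ICH against sham ranged from 2 to 5 when a library was left out, for acupuncture against ICH from 0 to 3, and for acupuncture against sham from 3 to 5, beside 4, 0 and 5 with all libraries. With library quality weights, which were 0.27 for each ICH library, 2 members were called for ICH against sham (Osmr and Socs3). Without the filter the counts were 3, 0 and 4, Il6ra being lost. Pseudocount, scaling, trend and the fit of 2 groups left all 3 counts as they were. The fold changes between acupuncture and ICH that turned sign when a library was left out were those of Osmr (-0.52 without ICH replicate 1 to 0.05 without ICH replicate 2), Lifr (-0.07 to 0.03, the upper end without acupuncture replicate 2) and Jak2 (-0.07 without acupuncture replicate 2, -0.04 without ICH replicate 1, and up to 0.25). None of these was called with all libraries, and the cause was not tested.

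Called genes over the whole table numbered 776, 5 and 1598 for ICH against sham, acupuncture against ICH and acupuncture against sham. They numbered 298, 1 and 3122 with quality weights, 666, 2 and 3207 with 2 groups fitted, and 387 to 5212, 2 to 5105 and 805 to 3215 when a library was left out, the highest of each without ICH replicate 1.

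Replicate numbers 1 and 2 are shared by the groups, but nothing says that they pair samples, and deviations of libraries with the same number correlated at -0.015 to 0.094. With the replicate block 3, 0 and 4 members were called, of 351, 3 and 750 genes.

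Leaving out each library in turn was added for the pathway and marker lists after the data were seen. Higher calls among other Jak and Stat genes ranged from 0 to 3 for ICH against sham, 0 to 2 for acupuncture against ICH and 4 to 5 for acupuncture against sham. Among the Jak-coupled receptors they ranged from 8 to 11, 0 to 2 and 8 to 12, and among Stat3 targets from 10 to 14, 0 to 7 and 11 to 13. The upper ends for acupuncture against ICH came without ICH replicate 1.

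A minimum log2 of 1 reduced the sham member peaks to 21, and a span limit of 1000 bp reduced them to 19 and the acupuncture peaks to 16. Member peaks overlapping a peak in both other groups numbered 20 in acupuncture, 23 in ICH and 18 in sham, and 12, 11 and 11 when at least 0.5 of both peaks had to be shared.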
